A study of Homo sapiens with 45 samples.

Results

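Genes of the Polycomb repressive complexes were followed through palbociclib (PB) treatment of neuroblastoma cells. They are EZH2, EZH1, SUZ12, EED, RBBP4, RBBP7, and JARID2 of Polycomb repressive complex 2 (PRC2) and BMI1, CBX2, and CBX7 of PRC1. They are listed by symbol, with no threshold on their values but with earlier results of these data known, and make up 10 of the 29159 genes counted. All 10 were found in the count table of every line and passed the filter on low counts in every line. The 7 PRC2 genes and the 3 PRC1 genes are described in turn, and EZH2 is set beside its paralog EZH1.

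Polycomb complexes keep developmental genes silent in cells where they are not needed. PRC2 methylates lysine 27 of histone H3 through EZH2 or EZH1, and neither enzyme works without SUZ12 and EED, while the histone-binding proteins RBBP4 and RBBP7 and the DNA-binding protein JARID2 complete or guide the complex. PRC1, which includes BMI1, binds that mark through CBX proteins such as CBX2 and CBX7 and ubiquitylates histone H2A, and EZH2 is best known as the form of the enzyme in dividing cells and EZH1 as the form in resting cells.

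RNA was measured in 3 established human neuroblastoma lines of the adrenergic (ADRN) type, grown in DMEM/F12 medium with serum, and sets of 3 values follow the order SK-N-BE(2)C at the front, IMR-32 in the middle, and SH-SY5Y at the end. SK-N-BE(2)C and IMR-32 carry amplified MYCN and loss of 1p, and SH-SY5Y carries mutant ALK without MYCN amplification, so each line is 1 genetic background and cannot stand for its MYCN status. Each line had 3 groups of 5 libraries: a control, cells given 1 μM PB (an inhibitor of CDK4 and CDK6) for 24 h, and cells given PB for longer, which was 7 d in SK-N-BE(2)C and 5 d in the other lines. The longer time is called late here, its length cannot be told apart from the line, and the control was collected with the 24 h samples and serves both treated groups, so the 24 h and late differences share it and are given side by side. With no control from the late time, PB cannot be told apart from longer time in culture in any late difference.

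The 45 libraries held 13459219 to 25441812 counts each, with a median of 18494528. All 8 ADRN markers were found, with 8, 8, and 7 of them at a counts-per-million (CPM) value of 1 or more in the controls of the 3 lines, and MYCN lay at 3524 to 4731 CPM, 1370 to 1857 CPM, and 4.55 to 7.64 CPM in those controls. Each library was compared with its group by the mean chi-square per degree of freedom of its counts against the other replicates, divided by that among the others. This ratio was 7.86, 2.62, and 3.39 for replicate 5 of IMR-32 in control, 24 h, and 5 d libraries, and at most 1.91 for any other library (SK-N-BE(2)C 24 h replicate 2, followed by 7 d replicates 1 and 3 at 1.86 and 1.72). Of 6 mesenchymal markers 5 were found, and their summed level was 132 CPM in control replicate 5 of IMR-32 against 21.3 to 32.5 CPM in its other controls. That sum also moved with treatment. For SK-N-BE(2)C the sum was 105 to 134 CPM in the controls, 135 to 154 CPM at 24 h, and 157 to 320 CPM at 7 d. For SH-SY5Y it was 160.3 to 193 CPM, 88.7 to 155 CPM, and 62.2 to 94.3 CPM in the same order, and treated IMR-32 libraries held 9.99 to 53.8 CPM at 24 h and 9.18 to 13.8 CPM at 5 d. The markers in the sum did not move as 1. Of 4 tested in SK-N-BE(2)C at 7 d, FN1 was called higher (1.57) and SNAI2 (-1.95) and WWTR1 (-2.02) lower, with a median of -0.75, while 2 of 3 in IMR-32 and 4 of 5 in SH-SY5Y were called lower at 5 d and 0 higher. Of all genes, 22.3%, 15.5%, and 17.3% were called lower and 24.5%, 16.6%, and 18.6% higher at these times in the 3 lines. Summed Schwann cell markers, of which 4 of 5 were found, stood at 1.34 to 3.56 CPM in IMR-32 controls and 5.44 to 9.16 CPM at 5 d, and at 2.97 to 4.68 CPM in SH-SY5Y controls and 5.28 to 11.9 CPM at 5 d. In SK-N-BE(2)C the Schwann sum was 15.8 to 21.9 CPM in the controls, 22.1 to 27.7 CPM at 24 h, and 15.7 to 26.6 CPM at 7 d. Of 3 Schwann markers tested there, 2 were called higher at 24 h, where 10.9% of all genes were, and 1 higher and 1 lower at 7 d. Summed ADRN markers were higher at 24 h in every line, for example at 5357 to 7122 CPM against 3574 to 4838 CPM in SH-SY5Y controls. Of the 8, 1, 4, and 2 were called higher at 24 h, against 10.9%, 7.87%, and 10.5% of all genes, and 0 lower. At the late time 0, 1, and 1 were called higher and 1 lower in each line. MYCN lay at 1878 to 2678 CPM in SK-N-BE(2)C at 7 d, called lower (-0.71), and at 2295 to 2684 CPM in IMR-32 at 24 h, called higher (0.58). The part of any of these markers in the results was not tested. Where a call is said to depend on 1 library, values with and without it are given. Because these are bulk samples, fewer cells of a type and less RNA per cell cannot be told apart.

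Levels below are CPM scaled by the trimmed mean of M-values over all 45 libraries, and differences are log2 fold changes ± SE from edgeR's quasi-likelihood test, fitted to all genes of a line and adjusted by Benjamini-Hochberg. A gene was called when its adjusted p was under 0.05 and its log2 fold change was over 0.5 in size.

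The 10 genes lie on 8 chromosomes. On GRCh37 (hg19), EZH2 spans chr7:148504349-148581413, EZH1 chr17:40852293-40897067, SUZ12 chr17:30264026-30328057, EED chr11:85912254-85989855, RBBP4 chr1:33116743-33151812, RBBP7 chrX:16857406-16888485, and JARID2 chr6:15246300-15522273. The PRC1 genes BMI1, CBX2, and CBX7 span chr10:22610028-22620413, chr17:77751947-77761782, and chr22:39516172-39548685. The counts are sums over exons, and some of those exons are shared: 1000 of the 4395 exonic bases of BMI1 also belong to the readthrough gene COMMD3-BMI1 on the same strand, 2160 of 9470 bases of RBBP4 lie opposite SYNC, and 1338 of 7467 bases of CBX7 lie opposite a long noncoding RNA. BMI1 is therefore uncertain as a single gene, and the part of the opposite-strand genes in RBBP4 and CBX7 was not tested.

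PB acts upstream of the RB and E2F proteins, so the windows around the transcription start sites were read for the letters of E2F sites, and the 3 genes whose windows hold one are shown. The windows run from 250 bases before to 50 bases after the start site, are RefSeq sequences of GRCh38.p14, and number 14 for the 9 genes with an entry, all but CBX2. The 8-letter forms searched on both strands were TTTCCCGC, TTTCGCGC, TTTGCCGC, and TTTGGCGC. Of all 35116 windows, 3.31% hold at least 1 of them. The stretches below are 150 bases each, written 5′ to 3′ on the strand of the gene, with matches in capitals.
EZH2: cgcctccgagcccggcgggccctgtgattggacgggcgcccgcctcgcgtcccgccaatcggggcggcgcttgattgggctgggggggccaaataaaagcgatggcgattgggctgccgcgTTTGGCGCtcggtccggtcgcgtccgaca
SUZ12: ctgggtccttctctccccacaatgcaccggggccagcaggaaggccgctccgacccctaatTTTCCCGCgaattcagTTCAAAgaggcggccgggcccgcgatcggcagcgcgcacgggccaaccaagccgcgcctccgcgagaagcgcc
EZH1: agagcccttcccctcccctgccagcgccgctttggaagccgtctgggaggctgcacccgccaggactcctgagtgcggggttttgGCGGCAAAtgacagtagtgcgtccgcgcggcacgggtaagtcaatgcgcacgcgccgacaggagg
The EZH2 stretch (chr7:148884262-148884411, minus strand) runs from -120 to 30 around the start site and holds TTTGGCGC at position 2. The SUZ12 stretch (chr17:31936757-31936906, plus strand) holds TTTCCCGC at -189 and, on the other strand at -173, TTTGAA, the letters of a cell cycle homology region, which 15.2% of all windows hold. The EZH1 stretch (chr17:42745091-42745240, minus strand) holds TTTGCCGC on the other strand at -115. The E-box CACGTG, found in 7.26% of all windows, was present in those of RBBP4 at -237 and BMI1 at -70, and does not overlap the other motifs. A match describes letters only and shows no binding.

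EZH2, the main H3K27 methyltransferase of dividing cells, fell in all 3 lines within 24 h and was still low at the late time. In SK-N-BE(2)C, EZH2 stood at 92.6, 93.9, 90.3, 93.6, and 92.5 CPM in control replicates 1 to 5, at 26.5, 29.5, 23.3, 27.7, and 24.6 CPM after 24 h, and at 27.7, 12.7, 10.7, 23.2, and 20.5 CPM after 7 d. Every treated library lay far below every control, the controls were tightly grouped, and the 7 d libraries were spread widely, with replicates 2 and 3 lowest. The same 2 libraries had the highest FN1 of their group, at 222 and 152 CPM against 61.6 to 69.2 CPM, which set their high sum of mesenchymal markers (320 and 253 CPM against 157 to 168 CPM), and the part of this in EZH2 was not tested. The log2 fold change was -1.81 ± 0.19 at 24 h (3.51-fold lower, adjusted p = 1.6e-06 by edgeR's quasi-likelihood test) and -2.29 ± 0.19 at 7 d (4.88-fold lower, adjusted p = 4.8e-08).

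In IMR-32, EZH2 stood at 112, 112, 139, 104, and 161 CPM in the controls, at 51.0, 50.2, 61.1, 44.04, and 52.4 CPM after 24 h, and at 54.0, 52.5, 59.4, 55.3, and 57.9 CPM after 5 d. The treated groups lay below all controls and overlapped each other, and the highest control was replicate 5, the replicate that stood apart. The log2 fold change was -1.28 ± 0.11 at 24 h (2.42-fold lower, adjusted p = 3.9e-07 by edgeR's quasi-likelihood test) and -1.13 ± 0.11 at 5 d (2.19-fold lower, adjusted p = 2.4e-06). Without replicate 5 in any group, these were -1.17 and -1.03, and EZH2 was still called at both times.

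In SH-SY5Y, EZH2 stood at 125, 115, 128, 129.5, and 130.4 CPM in the controls, at 32.3, 33.9, 36.5, 37.5, and 32.8 CPM after 24 h, and at 18.5, 21.2, 33.6, 36.5, and 45.1 CPM after 5 d. The treated libraries again lay far below the controls, close together at 24 h and widely spread at 5 d. The log2 fold change was -1.89 ± 0.18 at 24 h (3.70-fold lower, adjusted p = 6.9e-07 by edgeR's quasi-likelihood test) and -2.04 ± 0.18 at 5 d (4.10-fold lower, adjusted p = 1.7e-07). Among all genes tested, only 1.39%, 3.98%, and 1.75% had a lower log2 fold change than EZH2 at 24 h in the 3 lines, and 1.25%, 5.84%, and 1.31% had a lower one at the late time.

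Between 24 h and the late time EZH2 was not called in any line, at -0.48 ± 0.19 in SK-N-BE(2)C (adjusted p = 0.043 by edgeR's quasi-likelihood test, under the fold limit), 0.15 ± 0.11 for IMR-32, and -0.15 ± 0.18 for SH-SY5Y. The first of these depended on single libraries. Without 7 d replicate 1 EZH2 was called in SK-N-BE(2)C at -0.65, and without 24 h replicate 3 or 7 d replicate 4 it was called at -0.52 or -0.56. With the replicate number as a block it was also called (-0.51), whereas without replicate 2 in all groups it shrank to -0.31.

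**Figure D1:**
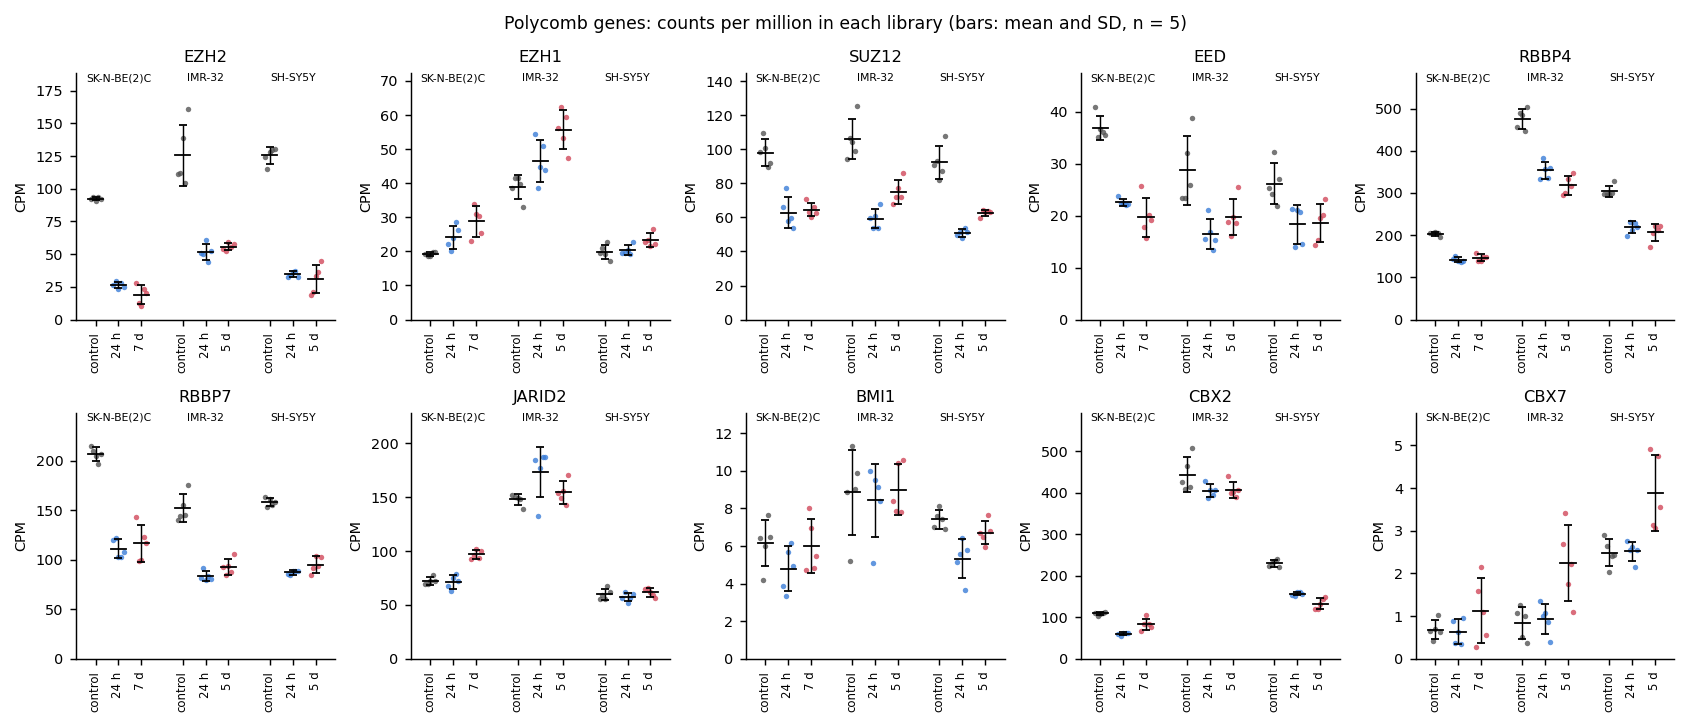
Counts-per-million (CPM) values (vertical axes) of the 10 Polycomb genes in each of the 45 libraries, grouped by line and treatment (horizontal axes), with points for libraries and bars for the mean and SD of 5 libraries. EZH2, SUZ12, and RBBP7 sat below all controls of their line in every treated library, JARID2 at 24 h overlapped its controls in every line, and CBX7 was near 1 CPM in the controls of IMR-32 and SK-N-BE(2)C.

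EZH1, the paralog that serves PRC2 in resting cells, was not lower in any treated group by the test. EZH1 in SK-N-BE(2)C stood at 19.3, 18.7, 18.5, 19.7, and 19.9 CPM in the controls, at 22.2, 20.03, 23.8, 28.5, and 26.3 CPM after 24 h, and at 22.99, 34.0, 31.0, 30.5, and 25.3 CPM after 7 d. All treated libraries lay above the controls. The difference was 0.33 ± 0.11 at 24 h, under the fold limit, and EZH1 rose by 0.59 ± 0.11 at 7 d (adjusted p = 0.00012 by edgeR's quasi-likelihood test).

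IMR-32 held the most EZH1, at 38.6, 41.5, 41.4, 39.8, and 33.1 CPM in the controls, 54.4, 38.4, 44.8, 50.8, and 44.01 CPM after 24 h, and 56.3, 62.3, 53.2, 59.5, and 47.3 CPM after 5 d. The 24 h libraries overlapped the controls (0.26 ± 0.10) and the 5 d libraries lay above them, so that EZH1 rose by 0.56 ± 0.10 (adjusted p = 0.00033 by edgeR's quasi-likelihood test). In SH-SY5Y the controls stood at 19.4, 20.9, 19.2, 22.7, and 17.2 CPM, the 24 h libraries at 19.5, 19.6, 20.5, 19.2, and 22.8 CPM, and the 5 d libraries at 22.6, 23.4, 21.7, 26.7, and 22.1 CPM. These groups overlapped, and EZH1 was not called in SH-SY5Y at 24 h (0.00 ± 0.08) or at 5 d (0.21 ± 0.08, adjusted p = 0.035 by edgeR's quasi-likelihood test). The late response of EZH1 in SK-N-BE(2)C did not differ from that in SH-SY5Y by the test of the difference (0.36 ± 0.14, adjusted p = 0.050 by edgeR's quasi-likelihood test over all 45 libraries, under the fold limit).

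The balance of the paralogs was read within each library as the log2 ratio of EZH2 to EZH1 counts, which needs no scaling between libraries. In SK-N-BE(2)C it was 2.26, 2.33, 2.28, 2.24, and 2.21 in the controls, 0.26, 0.56, -0.03, -0.04, and -0.10 after 24 h, and 0.27, -1.42, -1.53, -0.40, and -0.31 after 7 d. After 7 d, 4 of the 5 libraries therefore held fewer EZH2 than EZH1 counts, and replicate 1 did not. The mean ratio of counts was 4.81 in the controls, 1.09 after 24 h, and 0.625 after 7 d.

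In IMR-32 the mean log2 ratio was 1.68 ± 0.36 (SD, n = 5) in the controls, 0.16 ± 0.29 after 24 h, and 0.01 ± 0.22 after 5 d, with treated libraries between -0.25 and 0.45 and controls between 1.39 and 2.28. In SH-SY5Y it was 2.66 ± 0.18 in the controls, 0.77 ± 0.16 after 24 h, and 0.34 ± 0.55 after 5 d, with treated libraries between -0.29 and 1.03 and controls between 2.46 and 2.92. No treated library of either line reached its lowest control.

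The ratio fell in all 6 comparisons with control, by 4.40-fold, 2.86-fold, and 3.72-fold at 24 h and by 7.69-fold, 3.18-fold, and 5.01-fold at the late time in the 3 lines. Each had p = 0.00794 in a two-sided exact permutation test of 5 against 5 libraries, the smallest that such splits allow, and 0.0119 after Benjamini-Hochberg adjustment over 9 comparisons. The late ratio differed from the 24 h ratio by -0.81 ± 0.37 in SK-N-BE(2)C (exact permutation p = 0.0714, adjusted 0.0918), -0.15 ± 0.16 in IMR-32 (0.349, adjusted 0.349), and -0.43 ± 0.26 in SH-SY5Y (0.151, adjusted 0.170), none of which passed. The first passed without 7 d replicate 1 (-1.04, exact permutation, adjusted p = 0.0102) and the last without 5 d replicate 5 (-0.60, adjusted p = 0.0204). Counts favour longer transcripts. Per kilobase of the canonical transcript, which is 2654 bases for EZH2 and 4633 for EZH1, mean EZH2 exceeded mean EZH1 in every group, by the least in SK-N-BE(2)C after 7 d at 7.14 against 6.21 CPM per kilobase. Over all annotated exons, which add up to 10774 and 6988 bases, EZH2 stood below EZH1 in that group, at 1.76 against 4.12 CPM per kilobase. On that scale it was also below EZH1 in every other treated group except SH-SY5Y after 24 h. The order of the paralogs therefore depends on the length used and the fall in their ratio does not.

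**Figure D2:**
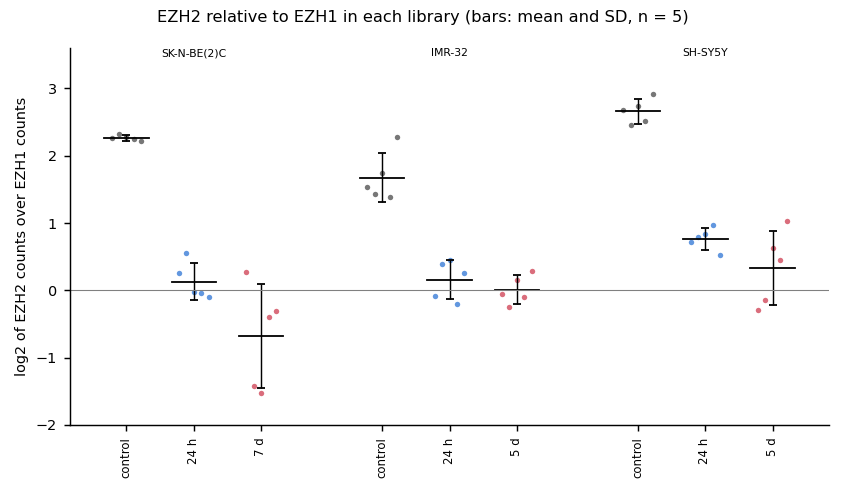
The log2 ratio of EZH2 to EZH1 counts (vertical axis) in each library by line and treatment (horizontal axis), with points for libraries and bars for the mean and SD of 5 libraries. Controls lay between 1.39 and 2.92, and all treated libraries lay between -1.53 and 1.03, on both sides of the line at 0 that marks equal counts.

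SUZ12 and EED, the subunits that PRC2 needs for its activity, fell beside EZH2. SUZ12 had means of 98.1 ± 7.84, 62.9 ± 9.13, and 64.7 ± 4.07 CPM (SD, n = 5) in control, 24 h, and 7 d libraries of SK-N-BE(2)C, 106 ± 11.9, 59.3 ± 5.70, and 75.1 ± 7.02 CPM in control, 24 h, and 5 d libraries of IMR-32, and 92.4 ± 9.64, 50.9 ± 2.31, and 62.9 ± 1.78 CPM in those of SH-SY5Y. No treated library of any line reached its controls: in SH-SY5Y, for example, the controls stood at 91.1, 93.0, 82.3, 87.5, and 108 CPM, the 24 h libraries at 49.5, 51.3, 47.9, 54.0, and 51.5 CPM, and the 5 d libraries at 59.9, 64.6, 63.1, 63.7, and 63.1 CPM. SUZ12 fell at 24 h in every line, by 0.64 ± 0.09, 0.84 ± 0.09, and 0.89 ± 0.07 on the log2 scale. At the late time SUZ12 fell in SK-N-BE(2)C (-0.59 ± 0.09) and SH-SY5Y (-0.58 ± 0.06), and in IMR-32 it stood at -0.46 ± 0.09, below all controls but under the fold limit, which it passed without control replicate 1 (-0.502) or 5 d replicate 5 (-0.51). From 24 h to 5 d it was 0.38 ± 0.09 higher in IMR-32 and 0.31 ± 0.07 higher in SH-SY5Y, with all 5 d libraries above all 24 h libraries in both, yet under the fold limit. SUZ12 can share reads with its partial copy SUZ12P1, whose part in these values was not tested. SUZ12P1 was called lower at 24 h in SK-N-BE(2)C (-0.53, lost at -0.50 without 24 h replicate 1) and SH-SY5Y (-0.60) and higher at 5 d in IMR-32 (0.59, lost at 0.49 without replicate 2).

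EED, which reads the methyl mark, was called lower in all 6 comparisons with control, but the calls differ in firmness. EED in SK-N-BE(2)C stood at 41.0, 35.2, 36.7, 36.1, and 35.5 CPM in the controls, 23.8, 22.4, 22.3, 22.02, and 22.2 CPM after 24 h, and 25.7, 17.9, 15.7, 20.1, and 19.3 CPM after 7 d, with no overlap (-0.71 ± 0.10 and -0.90 ± 0.10). In IMR-32 it fell by 0.80 ± 0.16 at 24 h, and at 5 d it lay at -0.50 ± 0.16 (adjusted p = 0.018 by edgeR's quasi-likelihood test), just past the fold limit and with overlapping libraries. That late call was lost with the replicate number as a block (-0.49), without replicate 5 in all groups (-0.47), and without control replicate 3 (-0.46), control replicate 5 (-0.36), or 5 d replicates 1, 2, or 4 (-0.48, -0.44, and -0.48). In SH-SY5Y, EED fell by 0.54 ± 0.15 at 24 h and 0.51 ± 0.15 at 5 d, and each call was lost without any of 3 single libraries. Those were control replicate 3 and 24 h replicates 2 and 5 at 24 h (-0.46, -0.48, and -0.47), and control replicate 3 and 5 d replicates 1 and 2 at 5 d (-0.43, -0.44, and -0.46).

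RBBP7 and RBBP4, histone chaperones that also work in other chromatin complexes, were both lower after PB. RBBP7 stood at 164, 153, 161, 155, and 158 CPM in SH-SY5Y controls, at 85.6, 84.3, 88.3, 88.7, and 89.0 CPM after 24 h, and at 84.2, 91.2, 104, 93.5, and 102 CPM after 5 d. In all 3 lines every treated library lay below every control, and RBBP7 fell by 0.89 ± 0.09, 0.86 ± 0.08, and 0.89 ± 0.06 on the log2 scale at 24 h and by 0.82 ± 0.09, 0.67 ± 0.08, and 0.75 ± 0.06 at the late time in the 3 lines. The spread of these 24 h values over the lines was under 1 SE of each.

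RBBP4 was also below all controls in every treated group, by less. Its controls had means of 204 ± 4.86, 476 ± 23.4, and 304 ± 13.2 CPM (SD, n = 5), against 142 ± 6.17, 353 ± 20.9, and 219 ± 14.0 CPM after 24 h and 147 ± 8.09, 318 ± 21.8, and 206 ± 20.9 CPM at the late time in the 3 lines. The log2 fold changes were -0.52 ± 0.05, -0.42 ± 0.07, and -0.51 ± 0.07 at 24 h and -0.46 ± 0.05, -0.54 ± 0.07, and -0.58 ± 0.07 at the late time. These values straddle the fold limit, so 4 of the 6 passed, all but IMR-32 at 24 h and SK-N-BE(2)C at 7 d, the second of which passed without 7 d replicate 1 (-0.501). The SK-N-BE(2)C call at 24 h was lost with library totals in place of the scaling factors (-0.49), and the SH-SY5Y call at 24 h was lost that way (-0.496) and without control replicate 5 (-0.48) or 24 h replicate 1 (-0.47). The 4 RBBP4 pseudogenes found stood under 1 CPM in all libraries.

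JARID2, which brings PRC2 to DNA, was not called in any comparison with control. In SK-N-BE(2)C it stood at 69.5, 69.4, 72.5, 78.1, and 71.9 CPM in the controls, 67.4, 62.9, 74.7, 78.7, and 72.5 CPM after 24 h, and 92.6, 96.7, 102, 93.8, and 100.0 CPM after 7 d. The 24 h libraries overlapped the controls (-0.02 ± 0.06), and the 7 d libraries lay above them at 0.44 ± 0.06, under the fold limit (adjusted p = 6.9e-06 by edgeR's quasi-likelihood test). In IMR-32 the means were 148 ± 5.01, 174 ± 23.3, and 154 ± 10.4 CPM (SD, n = 5) and in SH-SY5Y 59.9 ± 5.10, 57.2 ± 3.85, and 61.7 ± 3.96 CPM, with overlapping libraries and no call in either line.

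**Figure D3:**
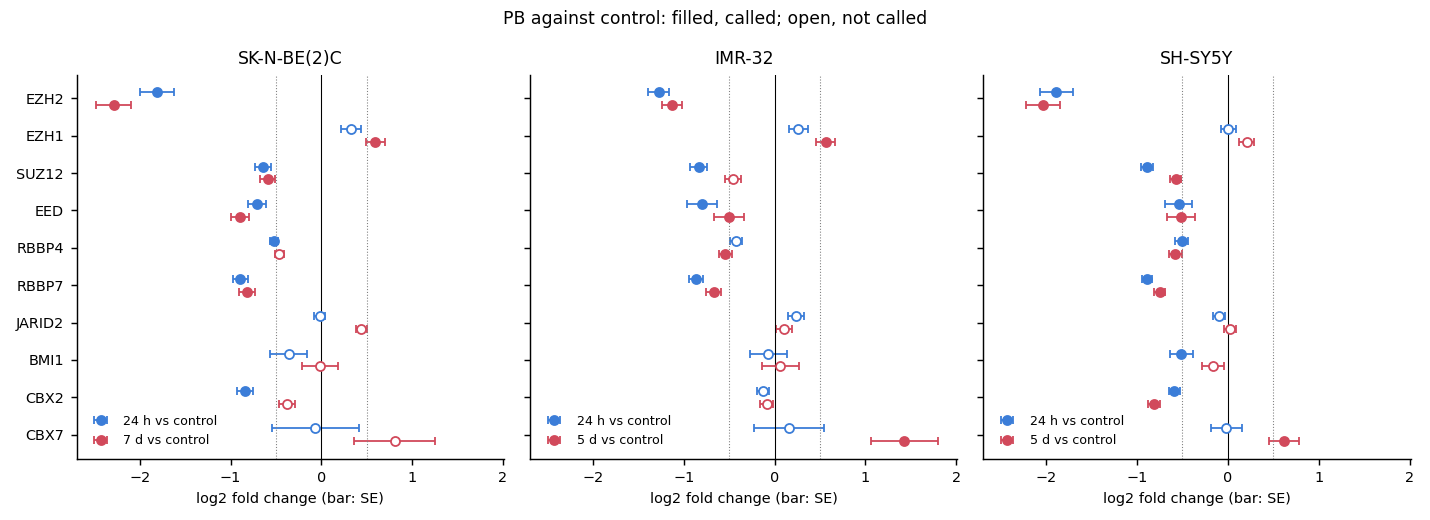
Log2 fold changes of the 10 genes against control (horizontal axes, bars for the SE) in each line at 24 h and at the late time, with filled points for genes called and open points for the others and dotted lines at the fold limit of 0.5. EZH2 lies farthest to the left in every panel, from -1.13 to -2.29, while EZH1, JARID2, and CBX7 have no filled point on the left in any line.

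Of the 3 PRC1 genes, BMI1 was low and CBX7 lower still, so their values rest on few reads. BMI1, the RING-finger partner that raises the activity of canonical PRC1, had 71 to 207 counts per library (median 131). In SH-SY5Y it stood at 7.02, 7.62, 8.13, 7.42, and 6.91 CPM in the controls, 5.17, 5.59, 6.45, 3.66, and 5.76 CPM after 24 h, and 6.69, 6.5, 5.94, 7.67, and 6.79 CPM after 5 d. The 24 h libraries lay below all controls and BMI1 fell by 0.51 ± 0.13 (adjusted p = 0.0030 by edgeR's quasi-likelihood test), while the 5 d libraries overlapped them (-0.16 ± 0.13). The 24 h call was lost without control replicate 3 (-0.48) or 24 h replicate 4 (-0.40). BMI1 was not called in the other lines, at -0.36 ± 0.20 and -0.07 ± 0.20 at 24 h and -0.02 ± 0.20 and 0.06 ± 0.20 at the late time, for SK-N-BE(2)C and then IMR-32.

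CBX2, a chromodomain protein that compacts chromatin, differed between lines in both level and response. In SK-N-BE(2)C it stood at 111, 102, 107, 111, and 114 CPM in the controls, 60.1, 56.0, 62.7, 62.8, and 62.5 CPM after 24 h, and 67.7, 82.8, 104, 83.5, and 77.7 CPM after 7 d. All 24 h libraries lay below the controls and below all 7 d libraries. CBX2 fell by 0.84 ± 0.09 at 24 h (adjusted p = 8.8e-07 by edgeR's quasi-likelihood test), stood at -0.38 ± 0.09 at 7 d under the fold limit, and was 0.46 ± 0.09 above its 24 h level at 7 d, also under the limit (0.53 and called without 7 d replicate 1).

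In IMR-32, with the highest level of the 3 lines, CBX2 stood at 424, 409, 463, 413, and 507 CPM in the controls, 428, 386, 407, 395, and 405 CPM after 24 h, and 439, 398, 401, 388, and 405 CPM after 5 d. These groups overlapped and CBX2 was not called (-0.13 ± 0.07 and -0.09 ± 0.07). In SH-SY5Y it stood at 223, 231, 236, 241, and 222 CPM in the controls, 155, 152, 160.0, 160.1, and 155 CPM after 24 h, and 120.5, 118.8, 133, 143, and 149 CPM after 5 d. Each SH-SY5Y group lay below the one before it without overlap, and CBX2 fell by 0.59 ± 0.06 at 24 h and 0.81 ± 0.06 at 5 d (adjusted p = 4.3e-07 and 6.0e-09 by edgeR's quasi-likelihood test).

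CBX7, a chromodomain protein found in PRC1 of resting and stem cells, had 4 to 100 counts per library (median 24). In SH-SY5Y it stood at 2.89, 2.65, 2.03, 2.41, and 2.43 CPM in the controls, 2.75, 2.55, 2.61, 2.15, and 2.54 CPM after 24 h, and 4.92, 3.13, 3.06, 4.76, and 3.56 CPM after 5 d. The 5 d libraries lay above all others, and CBX7 rose by 0.62 ± 0.16 against control and 0.63 ± 0.16 against 24 h (adjusted p = 0.0026 and 0.0047 by edgeR's quasi-likelihood test). In IMR-32 it stood at 1.07, 1.26, 0.516, 1.004, and 0.365 CPM in the controls, 1.36, 1.01, 1.07, 0.872, and 0.398 CPM after 24 h, and 2.69, 3.42, 1.75, 2.22, and 1.10 CPM after 5 d. Replicate 5 was lowest in each group. Control and 24 h libraries overlapped with or without it, and the other 5 d libraries lay above all of them.

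In IMR-32 CBX7 rose by 1.43 ± 0.37 against control and 1.27 ± 0.37 against 24 h at 5 d (adjusted p = 0.0044 and 0.015 by edgeR's quasi-likelihood test), and the second call was lost without replicate 2 (1.09) or replicate 4 (1.24). CBX7 in SK-N-BE(2)C stood between 0.421 and 1.03 CPM in the controls and at 0.266, 1.58, 2.14, 1.10, and 0.563 CPM after 7 d. It was not called there (0.81 ± 0.45), and without 7 d replicate 1, the lowest, it was called at 1.03 against control and at 1.110 against 24 h. Without 7 d replicate 3, the highest, the value against control was 0.42 and that against 24 h was 0.497, neither called. At 24 h CBX7 was not called in any line, at -0.07 ± 0.48, 0.16 ± 0.39, and -0.02 ± 0.17.

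Counted together, 6, 4, and 7 of the 10 genes were called lower at 24 h in the 3 lines, where 10.6%, 10.5%, and 11% of all genes tested were called lower. None was called higher at 24 h by edgeR's quasi-likelihood test or by DESeq2, against 10.9%, 7.87%, and 10.5% of all genes, and by either tool 1, 2, and 0 were higher at an unadjusted p under 0.05. At the late time 4, 4, and 6 of the 10 were called lower, against 22.3%, 15.5%, and 17.3% of all genes, and 1, 2, and 1 were called higher, against 24.5%, 16.6%, and 18.6%. The genes called higher were EZH1 in SK-N-BE(2)C, EZH1 and CBX7 in IMR-32, and CBX7 in SH-SY5Y. The median log2 fold change of the 10 was -0.58, -0.28, and -0.53 at 24 h and -0.42, -0.27, and -0.55 at the late time, with medians over all genes tested from 0.00 to 0.06. Between 24 h and the late time 0, 1, and 1 of the 10 were called, CBX7 in IMR-32 and SH-SY5Y, against 31.9%, 19.6%, and 16.7% of all genes. For SK-N-BE(2)C that count was 0 by edgeR's quasi-likelihood test and 0 by DESeq2, with 4 of the 10 at an unadjusted p under 0.05 by each.

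The mean of the PRC2 genes lay below that of the PRC1 genes in all 6 comparisons with control, a description with no test. In SK-N-BE(2)C at 24 h it rests on EZH2 and on CBX7, which has few reads. There CBX7 stood at -0.07 ± 0.48, against -0.84 for CBX2 and -0.36 for BMI1. The mean log2 fold change of the 7 PRC2 genes was -0.61, -0.53, and -0.69 at 24 h in the 3 lines, and that of the 3 PRC1 genes was -0.42, -0.01, and -0.37. At the late time the means were -0.58, -0.38, and -0.60 for PRC2 and 0.14, 0.47, and -0.12 for PRC1. The difference between them was -0.19, -0.52, and -0.31 at 24 h and -0.71, -0.85, and -0.48 at the late time. Without EZH2 it was 0.013, -0.39, and -0.11 at 24 h and -0.43, -0.72, and -0.25 at the late time. In SK-N-BE(2)C at 24 h the difference ranged from -0.30 to -0.09 with 1 library left out, the second without control replicate 2. CBX7 carries much of the late PRC1 mean, and with medians the difference was -0.58, -0.56, and -0.41, whereas at 24 h in SH-SY5Y it shrank to -0.03. By calls, 5, 4, and 5 of the 7 PRC2 genes and 1, 0, and 2 of the 3 PRC1 genes were lower at 24 h, and 4, 4, and 5 against 0, 0, and 1 at the late time, where 10.6%, 10.5%, and 11% of all genes were called lower at 24 h and 22.3%, 15.5%, and 17.3% late. Called higher late were 1, 1, and 0 PRC2 genes and 0, 1, and 1 PRC1 genes, against 24.5%, 16.6%, and 18.6% of all genes. For the 0 of 3 in IMR-32 at 24 h by edgeR's quasi-likelihood test, DESeq2 also called 0, and 0 by edgeR and 1 by DESeq2 were lower at an unadjusted p under 0.05. For the late 0 of 3 called lower, DESeq2 called 0 in the same lines, with 1 (SK-N-BE(2)C) and 0 (IMR-32) at an unadjusted p under 0.05.

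Longer lists of subunits, which include the 10 genes, gave the same order of means. With 13 PRC2 genes against 27, 26, and 27 PRC1 genes, the difference of mean log2 fold changes was -0.39, -0.29, and -0.39 at 24 h and -0.50, -0.29, and -0.30 at the late time. At 24 h, 7, 5, and 6 of the 13 PRC2 genes and 5, 5, and 6 of the PRC1 genes were called lower, where 10.6%, 10.5%, and 11% of all genes were. At the late time 5, 5, and 7 PRC2 genes and 4, 5, and 6 PRC1 genes were lower, against 22.3%, 15.5%, and 17.3% of all genes. Called higher late were 1, 1, and 1 PRC2 genes and 4, 3, and 2 PRC1 genes, against 24.5%, 16.6%, and 18.6%. Whether these counts differ between the lists was not tested. These lists contain the 10 genes and were not chosen independently of earlier results. The added genes alone did not keep this order throughout. At 24 h the 6 added PRC2 genes tested had median log2 fold changes of -0.17, -0.11, and -0.11. Added canonical PRC1 genes stood at -0.19, -0.06, and -0.12, and variant PRC1 genes at -0.01, -0.07, and -0.16. Late medians were -0.10, -0.32, and -0.24 for PRC2, 0.01, 0.08, and -0.09 for canonical PRC1, and 0.01, -0.10, and -0.30 for variant PRC1.

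The subunits beyond the 10 were mostly not called, and their counts are to be read against the shares of all genes given above: 10.6%, 10.5%, and 11% lower and 10.9%, 7.87%, and 10.5% higher at 24 h, and 22.3%, 15.5%, and 17.3% lower and 24.5%, 16.6%, and 18.6% higher at the late time. Of 6 PRC2 accessory genes tested, PHF19, which docks PRC2 on methylated chromatin, was the exception. PHF19 stood at 123, 121, 116, 126, and 123 CPM in SK-N-BE(2)C controls, 34.9, 38.7, 27.9, 26.3, and 29.8 CPM after 24 h, and 47.9, 18.0, 16.4, 38.5, and 31.3 CPM after 7 d. Its treated libraries lay below the controls in all 3 lines, as EZH2's did, and its log2 fold changes, all called, were -1.95 ± 0.24, -1.32 ± 0.09, and -2.20 ± 0.15 at 24 h and -2.002 ± 0.24, -0.74 ± 0.09, and -1.75 ± 0.15 at the late time. Besides PHF19, 1 accessory gene was called at 24 h, PHF1 in SK-N-BE(2)C (-0.60), and at the late time PHF1 (0.77) and LCOR (-0.62) in SH-SY5Y.

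Among PRC1 genes, the variant-complex subunit PCGF6 fell by 0.80 ± 0.11, 0.94 ± 0.15, and 0.86 ± 0.11 at 24 h and by 1.20 ± 0.11, 0.78 ± 0.15, and 1.16 ± 0.11 at the late time. The canonical subunit SCML2 fell by 0.79, 0.78, and 0.70 at 24 h and by 0.69, 0.76, and 0.59 at the late time, and its relative SCMH1 by 0.53, 0.75, and 0.51 at 24 h. The SCMH1 calls in SK-N-BE(2)C and SH-SY5Y sat at the fold limit, and each was lost without any of 3 single libraries. Those were control replicates 1 and 2 and 24 h replicate 3 of SK-N-BE(2)C (-0.49, -0.50, and -0.49) and control replicates 4 and 5 and 24 h replicate 1 of SH-SY5Y (all -0.49). In all, 2, 2, and 2 of 10 canonical PRC1 genes tested were called lower and 0, 2, and 0 higher at 24 h, among the last CBX8 (0.69) in IMR-32. At the late time the lower calls numbered 1, 2, and 1 and the higher calls 1, 2, and 0. Of 14, 13, and 14 variant PRC1 genes tested, 2, 3, and 2 were called lower and 0 higher at 24 h, and 3, 3, and 4 lower and 3, 0, and 1 higher at the late time. For PCGF5 the late calls pointed apart, at 1.04 (SK-N-BE(2)C) against -1.35 (IMR-32).

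Of the 7, 8, and 8 enzymes and partners tested that remove Polycomb marks, 1 was called at 24 h in each line, KDM6B, the H3K27 demethylase, where 10.9%, 7.87%, and 10.5% of all genes were called higher. KDM6B stood at 96.4, 84.1, 77.7, 82.2, and 77.6 CPM in SK-N-BE(2)C controls, 196, 167, 175, 168, and 166 CPM after 24 h, and 187, 171, 153, 156, and 188 CPM after 7 d. All treated libraries lay above all controls, here and in the other lines. KDM6B rose by 1.06 ± 0.08, 0.88 ± 0.13, and 1.003 ± 0.10 on the log2 scale at 24 h and by 1.04 ± 0.08, 0.71 ± 0.13, and 1.118 ± 0.10 at the late time. The other late calls in this list were ASXL2 in SK-N-BE(2)C (-0.82) and ASXL3 in IMR-32 (0.51), where DESeq2 called 1 gene of the list higher against 2 by edgeR.

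HOX genes, developmental regulators, are classical Polycomb targets. Of 39 listed, 29 were found and 13, 12, and 15 passed the filter on low counts in the 3 lines. At 24 h 0, 0, and 1 of these were called higher, against 10.9%, 7.87%, and 10.5% of all genes, and 0 lower, against 10.6%, 10.5%, and 11%, by edgeR's quasi-likelihood test. DESeq2 gave the same counts, and by edgeR 3, 3, and 3 higher and 1, 1, and 2 lower had an unadjusted p under 0.05. The gene called was HOXD1 in SH-SY5Y (1.09 ± 0.29), which stood at 0.908 CPM in the controls and 1.96 CPM after 24 h. At the late time 1, 0, and 1 were called higher (HOXC6 in SK-N-BE(2)C at 0.82 and HOXD1 in SH-SY5Y at 1.55), against 24.5%, 16.6%, and 18.6% of all genes, and 2, 4, and 1 lower, against 22.3%, 15.5%, and 17.3%. By DESeq2 the late counts were 2, 0, and 1 higher and 2, 4, and 2 lower. The lower calls were HOXD8 and HOXD10 in SK-N-BE(2)C, HOXC5, HOXC8, HOXD8, and HOXD13 in IMR-32, and HOXD3 in SH-SY5Y. The median log2 fold change of the HOX genes tested was 0.02, 0.38, and 0.00 at 24 h and 0.01, -0.14, and -0.14 at the late time.

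CASZ1, CLU, NGFR, and RUNX3 are known as genes that EZH2 silences in neuroblastoma, and their calls differed in direction. RUNX3 stood between 0 and 0.579 CPM and was not tested. CASZ1, a neuronal transcription factor, was not called at 24 h in any line, fell by 0.67 ± 0.10 in SH-SY5Y at 5 d, and was called at -0.92 ± 0.23 in IMR-32 at 5 d with overlapping libraries. CLU, a secreted chaperone, rose by 1.495 ± 0.46 in IMR-32 at 5 d, from controls at 80.3, 72.9, 80.0, 86.6, and 16.2 CPM to 224, 205, 162, 200.2, and 129.5 CPM. All 5 d libraries lay above every control, the low control was replicate 5, and the call was lost without replicate 1 (1.49). CLU was not called in SK-N-BE(2)C at 7 d (0.44), where it was called without 7 d replicate 1 (0.58) or 2 (0.52) and shrank to 0.29 without replicate 3 in all groups. NGFR, the low-affinity neurotrophin receptor, stood at 104, 93.7, 139, 125, and 52.4 CPM in IMR-32 controls and at 3.71, 5.16, 6.84, 3.79, and 7.44 CPM after 5 d, a fall of 4.21 ± 0.34 on the log2 scale. In SH-SY5Y NGFR rose by 0.99 ± 0.17 at 24 h and was called lower at 5 d (-0.55 ± 0.18) with overlapping libraries, a call lost without 5 d replicate 3 (-0.48) or 5 (-0.49). Leaving out 1 library or replicate number gave -0.75 to -0.46 for this late value. For NGFR in SK-N-BE(2)C the log2 fold change was 0.71 at 24 h, not called, and 0.65 and called with the replicate number as a block. It was called higher there at 7 d (1.11 ± 0.46, adjusted p = 0.041 by edgeR's quasi-likelihood test) with overlapping libraries, and that call was lost without any of control replicates 1, 2, and 5 (0.95, 0.97, and 1.17) or 7 d replicates 3, 4, and 5 (0.75, 1.06, and 1.121).

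**Figure D4:**
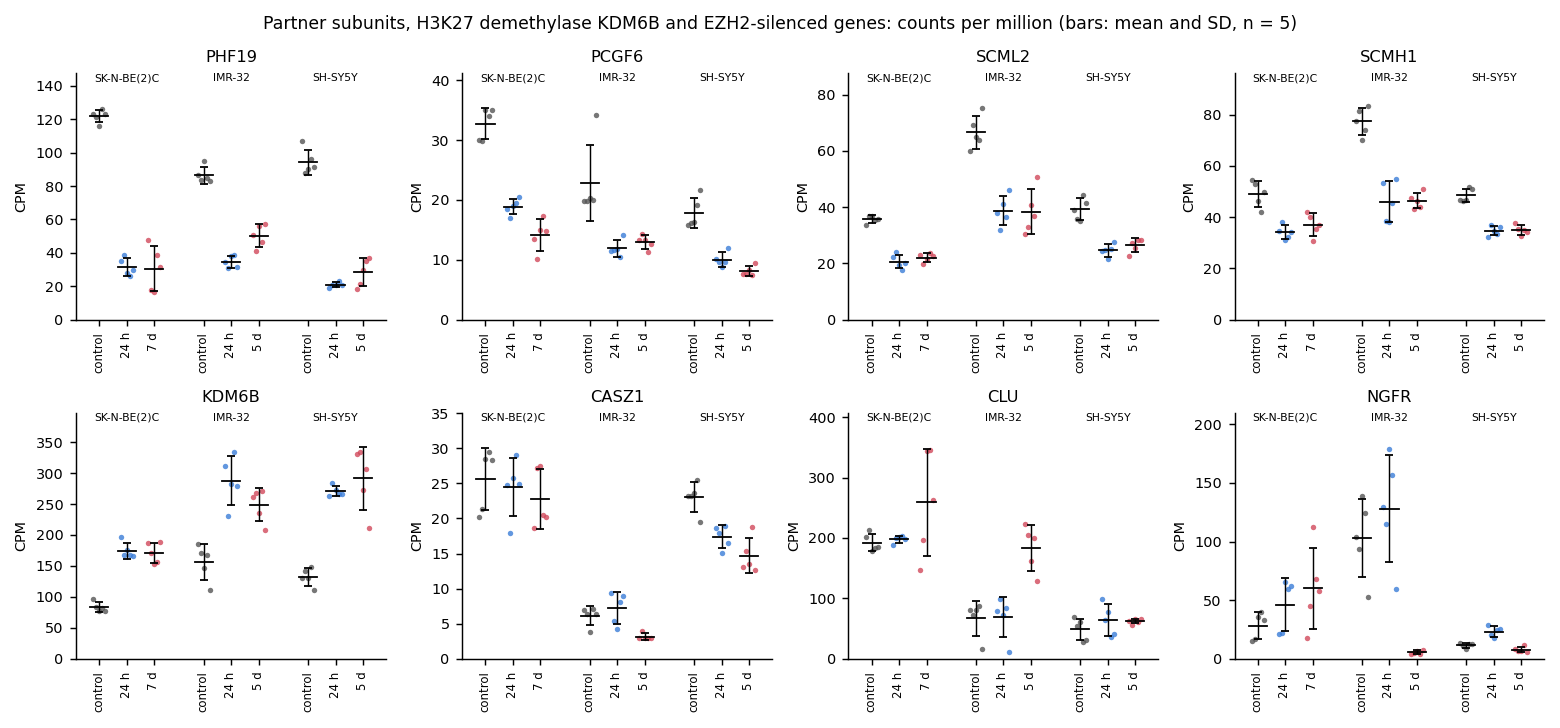
CPM values (vertical axes, from 0) of PHF19, PCGF6, SCML2, SCMH1, KDM6B, CASZ1, CLU, and NGFR in each library by line and treatment (horizontal axes), with points for libraries and bars for the mean and SD of 5 libraries. PHF19 fell and KDM6B rose in every treated group, and NGFR fell from a mean of 103 to 5.39 CPM in IMR-32 at 5 d.

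Before treatment the lines differed in several Polycomb genes. In tests over all 45 libraries, 5 of the 10 were called between SK-N-BE(2)C and IMR-32, 3 between SK-N-BE(2)C and SH-SY5Y, and 5 between IMR-32 and SH-SY5Y, where 62.1%, 57.5%, and 54.2% of all genes tested were called. CBX2 was 2.02 ± 0.07 lower in SK-N-BE(2)C than in IMR-32 and 1.08 ± 0.07 lower than in SH-SY5Y on the log2 scale. IMR-32 held more EZH1 (1.02 ± 0.10 and 0.97 ± 0.10), JARID2 (1.03 ± 0.07 and 1.30 ± 0.07), and RBBP4 (1.22 ± 0.06 and 0.64 ± 0.06) than SK-N-BE(2)C and SH-SY5Y. CBX7 was higher in SH-SY5Y, by 1.89 ± 0.35 and 1.53 ± 0.34 over SK-N-BE(2)C and IMR-32. EZH2, SUZ12, EED, and RBBP7 were not called between any pair of control groups, and EZH2 differed by -0.44 ± 0.17 between SK-N-BE(2)C and either other line and by 0.00 ± 0.17 between IMR-32 and SH-SY5Y. The call of BMI1, lower in SK-N-BE(2)C than in IMR-32 (-0.53 ± 0.19), was lost without replicate 3 of all lines (-0.42). Between the same controls EZH2 was called without replicate 4 of all lines (-0.503) and EED without replicate 5 (0.51), and between SK-N-BE(2)C and SH-SY5Y EED was called without replicate 3 (0.59) or 5 (0.53).

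The order of the genes was set by level per kilobase of the canonical transcript. In SK-N-BE(2)C controls RBBP7 was highest at 90.5 ± 3.05 CPM per kilobase (SD, n = 5), then EZH2 at 34.9 ± 0.525, RBBP4 at 25.8, CBX2 at 23.6, SUZ12 at 21.8, EED at 17.7, JARID2 at 12.04, EZH1 at 4.15, BMI1 at 1.74, and CBX7 at 0.166. Of these, only CBX2 and SUZ12 were neighbours whose libraries overlapped. In IMR-32 controls CBX2 led at 95.8 CPM per kilobase, with RBBP7 at 66.7, RBBP4 at 60.4, EZH2 at 47.3, JARID2 at 24.7, SUZ12 at 23.6, and EED at 13.8, and the libraries overlapped between RBBP7 and RBBP4, RBBP4 and EZH2, and JARID2 and SUZ12. In SH-SY5Y controls RBBP7 led at 69.3, with CBX2 at 49.8, EZH2 at 47.3, RBBP4 at 38.6, SUZ12 at 20.6, EED at 12.5, and JARID2 at 9.98, with overlap between CBX2 and EZH2 and between EED and JARID2. EZH1, BMI1, and CBX7 were the lowest of the 10 in the controls of all 3 lines on this scale. The order depends on the length used: over all annotated exons EZH2 in SK-N-BE(2)C controls stood at 8.59 CPM per kilobase, below SUZ12 at 14.98, and EZH1 in IMR-32 controls stood at 5.57, above EED at 4.10. After 24 h of PB EZH2 was down to 9.92, 19.5, and 13.03 CPM per kilobase, and at the late time to 7.14, 21.0, and 11.7.

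Whether lines responded differently was tested as the difference between their log2 fold changes. At 24 h CBX2 was the only one of the 10 called, with a response 0.71 ± 0.10 lower in SK-N-BE(2)C than in IMR-32 (adjusted p = 9.1e-06 by edgeR's quasi-likelihood test). The counts were 1, 0, and 0 of the 10 for SK-N-BE(2)C against IMR-32, SK-N-BE(2)C against SH-SY5Y, and IMR-32 against SH-SY5Y, where 4.49%, 2.04%, and 3.07% of all genes were called. For the counts of 0 by edgeR's quasi-likelihood test DESeq2 also called 0, and 2 and 3 of the 10 by edgeR had an unadjusted p under 0.05.

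At the late time the counts were 1, 0, and 2 of the 10, against 23.9%, 21.2%, and 20.8% of all genes, and for the 0 DESeq2 also called 0, with 3 at an unadjusted p under 0.05 by each tool. That 0 became 1 without replicate 5 of all lines, for CBX2 (0.504). EZH2 fell less in IMR-32 than in SK-N-BE(2)C by 1.13 ± 0.24 and than in SH-SY5Y by 0.85 ± 0.24 (adjusted p = 0.00036 and 0.0059 by edgeR's quasi-likelihood test). Without replicate 5 in all lines these differences were 1.26 and 1.10. SK-N-BE(2)C and SH-SY5Y did not differ in the late EZH2 response by this test (-0.28 ± 0.24, adjusted p = 0.41 by edgeR's quasi-likelihood test). CBX2 fell more in SH-SY5Y than in IMR-32, by 0.67 ± 0.10 (adjusted p = 2.5e-06 by edgeR's quasi-likelihood test), where the fit in IMR-32 called no change. At 24 h the EZH2 responses differed by -0.54 ± 0.24, 0.05 ± 0.24, and 0.58 ± 0.24 for the 3 pairs of lines in the same order, none called (adjusted p = 0.19, 0.99, and 0.18 by edgeR's quasi-likelihood test).

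As a description, the genes whose log2 CPM followed each Polycomb gene most closely over all 45 libraries were listed from 12556 genes, with each gene centred on its mean within each line, so that r leaves out differences between lines, and with no p, since the libraries share lines and treatments. The measure was Pearson's r. EZH2 was closest to TMPO (r = 0.987), LMNB1 (0.986), and TUBA1B (0.980), which encode parts of the nuclear lamina and a tubulin. RBBP7 was closest to NCAPD2 (0.981), a condensin subunit, SUZ12 to ECT2 (0.969), a regulator of cytokinesis, RBBP4 to UBA2 (0.955), and EED to SLF1 (0.913). CBX2 was closest to CDKN1B (0.897), an inhibitor of cyclin-dependent kinases, EZH1 to LOC283788 (0.896), JARID2 to FBXL19-AS1 (0.836), CBX7 to RAB3B (0.801), and BMI1 to PABPN1 (0.625). With EZH2 itself, r of these line-centred values was 0.937 for RBBP7, 0.916 for RBBP4, 0.866 for EED, 0.847 for SUZ12, 0.740 for CBX2, and 0.195 for BMI1, and it was -0.413 for CBX7, -0.439 for JARID2, and -0.677 for EZH1.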

How the data were processed

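Total RNA of 45 cultures was enriched for polyA RNA, made into directional libraries and sequenced as read pairs on a NovaSeq. The authors trimmed reads with Trim Galore 0.6.4 at a minimum phred quality of 20, aligned them to hg19 with STAR 2.6.1d and deposited raw counts per gene, 1 table per line (tools and build per the submitters' processing notes). The sources used here do not say which strand was counted. Deposited CPM tables repeat the counts on another scale and tables of DESeq2 1.32.0 comparisons hold fold changes and p-values, and neither was used. Groups came from the labels, and the study describes replicates as passages of the same line plated independently, so p-values measure at most the spread between passages of 1 line.

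The counts as deposited were fitted per line with edgeR 4.0.16 (limma 3.58.1, R 4.3.3): TMM factors, filterByExpr (minimum count 10, minimum total 15, share 0.7), robust quasi-likelihood fits to 15 libraries, and Benjamini-Hochberg adjustment over 14055, 14293, and 14547 genes. Calls took the limits that the study's methods give, 0.05 for the adjusted p and 0.5 for the size of the log2 fold change. Line differences were fitted to all 45 libraries (16282 genes). The biological coefficients of variation were 13.8%, 19.8%, and 11.2%. The fit was tested on simulated counts. The EZH2 to EZH1 ratio used counts with 0.5 added. Alternatives were DESeq2 1.42.0, other scaling, no filter, no fold limit, a replicate block, summing of close replicates, and leaving out libraries.

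All 10 genes were named throughout, and other subunits when called the same way in all 3 lines at a time; further single genes of the lists, such as CBX8, PCGF5, and HOXD1, were named after their values were seen, and some items are not reported here. The genes and lists were chosen with earlier results of these data known. Same-numbered samples deviated together in IMR-32 (lowest r = 0.114) and SH-SY5Y (lowest r = 0.109) and, for SK-N-BE(2)C, between its control and 24 h groups (lowest r = 0.243), but less in its other pairs (lowest r = 0.0482). Gene lengths are from GENCODE on GRCh37. No 2 replicates agreed within sampling noise (chi-square per degree of freedom at least 1.69).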

Additional observations from a re-analysis of the deposited data

Results flagged for a closer look

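Of 99 sets of 5 libraries, each 1 of the 10 genes or the EZH2 to EZH1 ratio in 1 of 9 groups, 6 held a library far from the other 4, where chance alone gives about 1 in 20. EED in SK-N-BE(2)C was highest in replicate 1, at 41.0 CPM in the control (35.2 to 36.7 CPM in the others) and 23.8 CPM after 24 h (22.02 to 22.4 CPM). In IMR-32 after 24 h, replicate 2 was lowest for JARID2 at 133 CPM (177 to 187 CPM in the others) and for BMI1 at 5.11 CPM (8.42 to 10.0 CPM). RBBP4 stood apart in control replicate 5, low in SK-N-BE(2)C at 195 CPM (205 to 207 CPM) and high in SH-SY5Y at 328 CPM (297 to 300.3 CPM).

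Of 60 tests of a Polycomb gene's response between lines, 4 passed both limits, 1 of 30 at 24 h, where 2.04% to 4.49% of all genes passed, and 3 of 30 late, where 20.8% to 23.9% did. The 24 h response of CBX2 was lower in SK-N-BE(2)C than in IMR-32 by a log2 difference of -0.71. The late response of EZH2 was lower in SK-N-BE(2)C than in IMR-32 by -1.13 and higher in IMR-32 than in SH-SY5Y by 0.85, and that of CBX2 by 0.67 between IMR-32 and SH-SY5Y. The 7 d and 5 d times cannot be told apart from the line in the first of these late differences.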

How the results depend on the processing

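EZH2 was called lower in all 6 comparisons with control under every alternative run, and no call of a Polycomb gene changed sign. Without the fold limit, the counts of genes called rose to 6577, 4738, and 7154 at 24 h, 9993, 7296, and 9516 at the late time, 8335, 4914, and 6331 from 24 h to late, and 1122 and 510 for the 24 h response of SK-N-BE(2)C against IMR-32 and SH-SY5Y (from 731 and 332). Of the 10 Polycomb genes it called 8 at 7 d in SK-N-BE(2)C (from 5), where 9993 of 14055 genes were called. From 24 h to late it called 4, 3, and 4 (from 0, 1, and 1), where 8335 of 14055, 4914 of 14293, and 6331 of 14547 genes were. It called 8 and 7 between SK-N-BE(2)C controls and those of IMR-32 or SH-SY5Y (from 5 and 3), 3 and 2 for the same pairs late (from 1 and 0), and 1 for IMR-32 against SH-SY5Y at 24 h (from 0). With the limit, 62.1% and 57.5%, 23.9% and 21.2%, and 3.07% of all genes were called in these comparisons, and without it no fewer were. With no filter, 219 genes were called for the 24 h response of SK-N-BE(2)C against SH-SY5Y.

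With the replicate number as a block, 1121, 670.0, and 926 genes were called for the 3 differences of 24 h responses (from 731, 332, and 500), and EZH2 was called from 24 h to 7 d in SK-N-BE(2)C (-0.51, 1 of the 10 genes, from 0), where the numbers were not shown to pair samples. Beyond this and EED and NGFR, given above, the block changed no call of the 10 genes or of PHF19, PCGF6, SCML2, SCMH1, KDM6B, CASZ1, CLU, or SUZ12P1. Controls of different lines cannot be paired. For the ratio of EZH2 to EZH1, sign flips of 5 pairs cannot reach 0.05.

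With library totals in place of TMM factors, calls were lost for EED in IMR-32 (-0.49) and SH-SY5Y (-0.45) at 5 d, RBBP4 in SK-N-BE(2)C (-0.49) and SH-SY5Y (-0.50) at 24 h, and BMI1 in SH-SY5Y at 24 h (-0.50). Leaving out 1 library or replicate number gave 371 to 870.0, 137 to 319, and 228 to 563 genes for the 24 h response differences. For the 10 genes it gave from 24 h to late 0 to 3 calls in SK-N-BE(2)C, 0 to 1 in IMR-32, and 0 to 1 for the late response of SK-N-BE(2)C against SH-SY5Y. The late minus 24 h ratio of EZH2 to EZH1 ranged from -1.04 to -0.51 in SK-N-BE(2)C and from -0.66 to -0.27 in SH-SY5Y. Calls among the 10 genes against control ranged from 5 to 7 at 7 d in SK-N-BE(2)C, 5 to 7 at 5 d in IMR-32, and, in SH-SY5Y, 5 to 7 at 24 h and 6 to 7 at 5 d.

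With EZH2 omitted, an alternative chosen after seeing the data, the PRC2 minus PRC1 difference turned to 0.013 at 24 h and moved to -0.43 at 7 d in SK-N-BE(2)C. It moved to -0.56 (medians) or -0.29 (longer lists) in IMR-32 at 5 d, to -0.028 (medians) in SH-SY5Y at 24 h, and to -0.11 (longer lists) from 24 h to 7 d in SK-N-BE(2)C. From 24 h to 5 d it turned to 0.061 (medians) or 0.0052 (longer lists) in IMR-32 and 0.093 (longer lists) in SH-SY5Y.

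Among single genes, signs turned only for values near 0 and not called. At 24 h these were EZH1 in SH-SY5Y (-0.017 with RLE factors, -0.016 with DESeq2, -0.014 with no filter, -0.11 to 0.054 with libraries left out), CBX7 in SK-N-BE(2)C (0.021 with replicates 3 to 5 summed, -0.29 to 0.24), IMR-32 (-0.013 to 0.34), and SH-SY5Y (-0.090 to 0.048), JARID2 in SK-N-BE(2)C (0.012 with library totals, -0.057 to 0.012), BMI1 in IMR-32 (-0.21 to 0.067), CLU in SK-N-BE(2)C (-0.018 summed) and IMR-32 (-0.0079 with totals, -0.20 to 0.32), and CASZ1 in SK-N-BE(2)C (-0.15 to 0.026). Later they were BMI1 in SK-N-BE(2)C (0.029 with totals, 0.11 summed, -0.26 to 0.13) and IMR-32 (-0.082 to 0.16), JARID2 in SH-SY5Y (-0.023 to 0.087), and SUZ12P1 in SH-SY5Y (-0.019 to 0.11). EZH2 between IMR-32 and SH-SY5Y controls was 0.0084 with RLE factors, 0.0088 with DESeq2, 0.0035 with no filter, and -0.091 to 0.071 with libraries left out. The cause of these changes was not tested. Low counts limit the precision for CBX7 and BMI1.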
